A study of Mus musculus with 2 samples.

Results

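Cd34, Thy1, Cd81, Ly6a, Ly6c1, Pi16, Dpp4 and F3 are 8 genes whose products sit on the cell surface or are secreted, and which are used to sort or to name progenitor-like stromal cells. The list was drawn up by name with earlier results of these data known. All 8 of the 17809 genes in the wild-type library and of the 15972 genes in the reporter library were found. The question was which stromal, endothelial and muscle cells of the mouse colon carried each gene, and which genes were found together in the same cell.

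Single-cell RNA was measured in 2 libraries. The wild-type library held C57BL/6 colon cells, in which sorted EpCAM+ CD45− epithelial and EpCAM− CD45− other cells were mixed in equal parts and read with the V3 kit. The reporter library was read with the V2 kit and held mesenchymal cells sorted for GFP from the Pdgfra-H2B-eGFP strain, in which a nuclear GFP is driven from the Pdgfra locus. Each library pooled 3 female mice of 8 to 12 weeks with no treatment, and the cells cannot be assigned to a mouse, so that every group is 1 sample and no test between mice could be made. The GFP sort leaves out cells with no Pdgfra, among them most muscle and endothelium, so those cells were described from the wild-type library.

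These genes belong to several families with different tasks. CD34 is a sialomucin of stromal cells and of vessel walls, and THY1 (CD90) is a GPI-anchored adhesion protein of fibroblasts and T cells. CD81 is a tetraspanin that organises membrane complexes and is made by many cell types. Ly6a (Sca-1) and Ly6c1 encode small GPI-anchored proteins of the Ly6 family, known from stem cell sorts and from endothelium. Pi16 and Dpp4, which encode a CAP domain protein and a dipeptidyl peptidase, mark fibroblasts of the adventitia that are regarded as a reserve for other fibroblasts, while DPP4 is also an enzyme of the gut epithelium. F3 encodes tissue factor, the receptor that starts blood clotting and is also known from fibroblasts close to the epithelium.

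In the mouse genome (GRCm38), Cd34 lies on chromosome 1 at 194938819 to 194961279, Dpp4 on chromosome 2 at 62330073 to 62412231, F3 on chromosome 3 at 121723537 to 121735048 and Cd81 on chromosome 7 at 143052739 to 143067934. Thy1 lies on chromosome 9 at 44043384 to 44048579 and Pi16 on chromosome 17 at 29317680 to 29330593. Ly6a (74994877 to 74998031) and Ly6c1 (75044018 to 75048830) are neighbours on chromosome 15. The 3′ ends that these kits read are alike in part, since 401 of 1667 words of 60 bases in the last 500 bases of the Ly6c1 transcripts, or 24.1%, also occur in Ly6c2 or Ly6a. For Ly6a the share was 3.66%, and for the other 6 genes 0 words were shared, so the split of reads between Ly6c1 and Ly6c2 is uncertain. Cd34, Cd81, Pi16 and Dpp4 each overlap 1 gene on the other strand, and whether strand was used in counting is not given in the sources used here.

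The 250 bases before the start site are shown for 4 of the genes that were past 2-fold between fibroblast types in both libraries, from RefSeq (GRCm38.p6), where 6 of the 8 genes matched (Thy1 and Ly6a did not). Capitals mark GGGCGG (the GC box) and TGANTCA (the AP-1 site), searched on both strands.
F3, chr3:121723287-121723536, plus strand: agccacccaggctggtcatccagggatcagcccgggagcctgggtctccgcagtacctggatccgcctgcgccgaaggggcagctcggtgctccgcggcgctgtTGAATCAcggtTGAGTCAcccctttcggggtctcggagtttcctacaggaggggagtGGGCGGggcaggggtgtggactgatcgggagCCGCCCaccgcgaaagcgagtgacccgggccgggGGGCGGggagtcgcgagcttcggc
Cd81, chr7:143052500-143052749, plus strand: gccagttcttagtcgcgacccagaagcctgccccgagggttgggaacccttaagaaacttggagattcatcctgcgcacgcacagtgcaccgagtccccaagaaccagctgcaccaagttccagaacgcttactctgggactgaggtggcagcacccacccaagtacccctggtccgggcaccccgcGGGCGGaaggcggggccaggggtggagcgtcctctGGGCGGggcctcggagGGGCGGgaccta
Cd34, chr1:194938571-194938820, plus strand: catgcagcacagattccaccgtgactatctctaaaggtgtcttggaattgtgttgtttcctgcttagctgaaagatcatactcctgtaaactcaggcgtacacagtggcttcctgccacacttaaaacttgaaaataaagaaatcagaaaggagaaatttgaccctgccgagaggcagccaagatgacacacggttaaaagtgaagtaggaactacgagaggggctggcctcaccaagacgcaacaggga
Pi16, chr17:29318632-29318881, plus strand: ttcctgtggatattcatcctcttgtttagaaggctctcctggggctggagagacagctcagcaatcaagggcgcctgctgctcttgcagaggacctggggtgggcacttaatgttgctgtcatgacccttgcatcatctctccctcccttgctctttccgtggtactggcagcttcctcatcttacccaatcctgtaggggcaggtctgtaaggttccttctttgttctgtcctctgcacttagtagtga
The F3 window held 3 matches to GGGCGG and 2 to TGANTCA, and its GC content was 70.0%. The Cd81 window, at 65.6% GC, held 3 matches to GGGCGG as well. GGGCGG was present in 32.7% and TGANTCA in 6.75% of the 32851 windows of all genes, whose median GC content was 52.4%. The Pi16 window lies inside the GENCODE gene, because RefSeq places the start further downstream, so it is not the sequence before the GENCODE start. The Dpp4 window, not printed, held 1 TATAAA, a string present in 12.4% of all windows. The windows of Cd34 (46.4% GC) and Pi16 (52.4% GC) held neither GGGCGG nor TGANTCA, nor TATAAA or TTCNNNGAA, which were searched as well. A match is a run of letters and was not tested as a binding site.

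The cells were clustered with the 8 genes kept out and named from marker lists that hold none of them. The wild-type library gave 1136 CBFs1-like, 503 CBFs2-like and 816 CTFs-like fibroblasts (crypt-bottom and crypt-top fibroblasts in the terms of the study), 949 smooth muscle-like, 118 pericyte-like, 591 blood endothelial-like, 45 lymphatic endothelial-like, 78 glia-like and 40 immune-like cells, 2486 epithelial cells and 132 fibroblasts with no type, and 601 cells stayed unnamed. The reporter library gave 2755 CBFs1-like and 850 CBFs2-like cells and a CTFs-like cluster of 637 cells, called cluster 3 here, because 3 smooth muscle markers (Tagln, Acta2 and Myl9) stood among its 10 leading genes against 1 CTFs marker (Bmp3). In cluster 3 the mean of Pdgfra was 1.17 and that of the muscle markers Myh11, Actg2 and Cnn1 0.12, 0.04 and 0.01. The 10 CTFs markers summed to a mean of 7.84 in cluster 3, against 1.74 in reporter CBFs1-like and 1.13 in reporter CBFs2-like cells. Wild-type CTFs-like cells carried the same 3 muscle genes, with means of 10.8 for Acta2, 8.18 for Tagln and 4.78 for Myl9. The reporter CBFs1-like class joined 3 clusters, of which 1 was led by Sbno2, Tnfaip3 and Cxcl2 and 1 by Saa3, Cxcl5 and Cxcl9. These 2 held 1188 and 550 cells, with 0 and 1 CBFs1 markers among their 10 leading genes. The third, of 1017 cells, held 1. Over the whole class the 10 CBFs1 markers summed to a mean of 12.2, against 1.82 in reporter CBFs2-like cells and 4.72 in cluster 3. The 10 blood endothelial markers summed to a mean of 81.4 in blood endothelial-like cells and to at most 0.245 in the fibroblast classes of the wild-type library, while the 10 fibroblast markers summed to 12.2 in blood endothelial-like cells and 72.8 in smooth muscle-like cells, against 153 to 347 in fibroblasts. Levels are means of corrected counts per cell, the UMI counts that the authors had adjusted to a common depth, and the libraries differ in kit and scale (median total 8972 per wild-type and 3150 per reporter cell). Levels are therefore compared within a library, and shares of cells between libraries only after each cell was thinned to a total of 2000.

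Cd34 was high in both crypt-bottom fibroblast classes and near background in the crypt-top class. Wild-type CBFs2-like cells had a mean of 9.48, CBFs1-like cells of 5.61 and CTFs-like cells of 0.150, against 4.18 for the blood endothelial-like and 0.238 for the smooth muscle-like class. Cd34 was found in 96.2% of CBFs2-like, 92.7% of CBFs1-like and 6.86% of CTFs-like cells, where epithelial cells, which should lack it, gave 2.49%. Median genes per cell behind these shares were 2799, 2683, 2436 and 3221. The CTFs-like share was thus within a few percent of the epithelial one, although its interval of 5.23 to 8.82% lay above the epithelial one of 1.92 to 3.19% (exact binomial, which covers counting of cells only, as do all intervals here). Reporter means were 2.10, 1.44 and 0.066 in the same order, with cluster 3 lowest again.

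Thy1 was higher in both crypt-bottom classes than in the crypt-top class, as Cd34 was, but it parted from Cd34 outside the fibroblasts. Wild-type CBFs1-like cells had a mean of 0.843, CBFs2-like cells of 0.579 and CTFs-like cells of 0.013, and 45.1%, 32.2% and 0.980% of their cells were above 0. The CTFs-like share did not stand apart from the epithelial background of 0.684% (17 of 2486 cells). Lymphatic endothelial-like cells had the highest mean of the 15 classes, 2.80, with 36 of 45 cells above 0, while 9 of 591 blood endothelial-like cells were. The order of the 2 crypt-bottom classes was the reverse of that of Cd34 in both libraries, with reporter means of 0.613 in CBFs1-like, 0.404 in CBFs2-like and 0.038 in cluster 3 cells.

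Cd81 set the crypt-bottom classes apart from each other. Wild-type CBFs2-like cells had a mean of 7.60 against 0.610 for CBFs1-like and 0.505 for CTFs-like cells, and 96.4%, 13.2% and 8.82% of these cells had a value of at least 2. This threshold matters here because a value of exactly 1, found in 21.6% of CTFs-like cells, can be set by the depth correction. Cd81 was widespread outside the fibroblasts, with means of 17.0 in glia-like, 11.3 in blood endothelial-like, 5.84 in enteroendocrine-like and 2.20 in all epithelial cells, whereas the smooth muscle-like mean was 0.325. The reporter means were 3.06, 0.229 and 0.132 in CBFs2-like, CBFs1-like and cluster 3 cells. After thinning, 79.7% of wild-type and 74.8% of reporter CBFs2-like cells were above 0 (99.0% and 82.9% before it), against 9.51% and 9.07% of CBFs1-like cells (22.7% and 12% before it).

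Ly6a was within 2-fold between the 3 fibroblast classes. Means of 11.3 (CBFs2-like), 9.82 (CBFs1-like) and 8.77 (CTFs-like) were found in the wild-type library, with 91.7%, 97.1% and 96.8% of cells above 0. The thinned share was 75.1% (71.1 to 78.9) for CBFs2-like, 79.2% (76.7 to 81.6) for CBFs1-like and 73.7% (70.5 to 76.6) for CTFs-like cells, so the CBFs2-like interval overlapped both others while the CBFs1-like interval began just above the CTFs-like one. The blood endothelial-like mean was 27.7 with 591 of 591 cells above 0, the smooth muscle-like mean 1.25 and the enterocyte-like mean 5.04. The reporter means were 6.94, 5.32 and 4.63 in CBFs2-like, CBFs1-like and cluster 3 cells.

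Among the named classes Ly6c1 was highest in blood endothelium. An unnamed cluster of 100 cells, led by Notch3, Ndufa4l2 and Heyl, came close, with Ly6c1 at 21.4 and Ly6a at 18.8. Its leading genes Notch3, Ndufa4l2, Rgs5, Vtn and Higd1b are pericyte markers, yet Ly6c1 stood at 0.534 in pericyte-like cells. The cluster had a median of 3850 genes per cell, against 2053 in blood endothelial-like and 2102 in pericyte-like cells. The part of mixed cells in it was not tested. The blood endothelial-like mean was 24.2, with 97.8% of cells above 0, against 0.089 for the lymphatic endothelial-like and 0.130 for the smooth muscle-like class. The fibroblast classes lay in between, at 2.63 (CBFs2-like), 1.64 (CTFs-like) and 1.53 (CBFs1-like), with 63.2%, 46.7% and 54.0% of cells above 0 and an epithelial background of 3.18%. Reporter means were 2.57 in CBFs2-like, 1.67 in CBFs1-like and 1.30 in cluster 3 cells. The 3 clusters of the reporter CBFs1-like class also differed, with Ly6c1 at 2.44 and Ly6a at 7.55 in the one led by Saa3, against 1.34 and 4.3 in the one led by Sbno2 and 1.65 and 5.32 in the third. Within the blood endothelium, both Ly6 genes and Cd81 were lower in the 98 cells of the cluster led by Selp, Madcam1 and Ackr1, which are known from venules, than in the other 493 cells. Ly6c1 was 12 against 26.6, Ly6a 19.7 against 29.3 and Cd81 5.62 against 12.4, while Cd34 was 4.07 against 4.20.

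Pi16 was concentrated in CBFs2-like cells. Its wild-type mean was 5.41 there, with 288 of 503 cells above 0 and a highest value of 85, against 0.092 in CBFs1-like (46 of 1136 cells) and 0.009 in CTFs-like cells (7 of 816 cells, each at a value of 1). The CTFs-like share of 0.858% did not differ beyond its interval from the epithelial background of 0.845%. The next level was 1.31 in the 132 fibroblasts with no type, a cluster with 2 mesothelial markers, Upk3b and Upk1b, among its 10 leading genes. It is called fibroblast here only because it passed the cut on general fibroblast markers, at least 8 of 10 per cell on average. Pericyte-like cells had 0 of 118 cells above 0, which allows up to 2.54% of cells with a count and sets no limit on cells that express the gene. The reporter means were 1.51 for CBFs2-like, 0.046 for CBFs1-like and 0.011 for cluster 3 cells.

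Dpp4 was rare in the stroma and common in the epithelium. Among wild-type fibroblasts it was above 0 in 37 of 503 CBFs2-like cells (7.36%, 5.23 to 10.0), 8 of 1136 CBFs1-like cells (0.704%, 0.305 to 1.38) and 1 of 816 CTFs-like cells (0.123%, 0.003 to 0.681). Smooth muscle-like cells, with 3 of 949, and blood endothelial-like cells, with 2 of 591, give the background at a median of 2622 and 2053 genes per cell. The CBFs2-like share stood above both, whereas the CBFs1-like interval overlapped theirs. Among reporter cells 25 of 850 CBFs2-like and 1 of 2755 CBFs1-like cells were above 0, and 0 of 637 cells of cluster 3 were, which allows a share of up to 0.471%. Epithelial cells reached 29.2%, and the enteroendocrine-like mean of 1.23 and the transit-amplifying-like mean of 0.471 stood against 0.097 for CBFs2-like cells.

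F3 ran opposite to Cd34 and Pi16 between crypt-top and crypt-bottom fibroblasts. Between the crypt-bottom classes it was higher in CBFs2-like cells, as Cd34 and Pi16 were. Wild-type CTFs-like cells had a mean of 7.40, CBFs2-like cells of 0.956 and CBFs1-like cells of 0.497, and 88.2%, 23.7% and 11% of them had a value of at least 2. CTFs-like cells were the highest of the 15 classes, followed by glia-like cells at 6.23, epithelial cells with no type at 5.21 and enterocyte-like cells at 4.09, while blood endothelial-like cells stood at 0.303. Cluster 3 had a mean of 2.79, against 0.391 and 0.154 in the reporter CBFs2-like and CBFs1-like cells. Thinned shares were 70.0% in wild-type CTFs-like cells and 68.1% in cluster 3, and 94.7% and 79.0% before thinning.

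**Figure D1:**
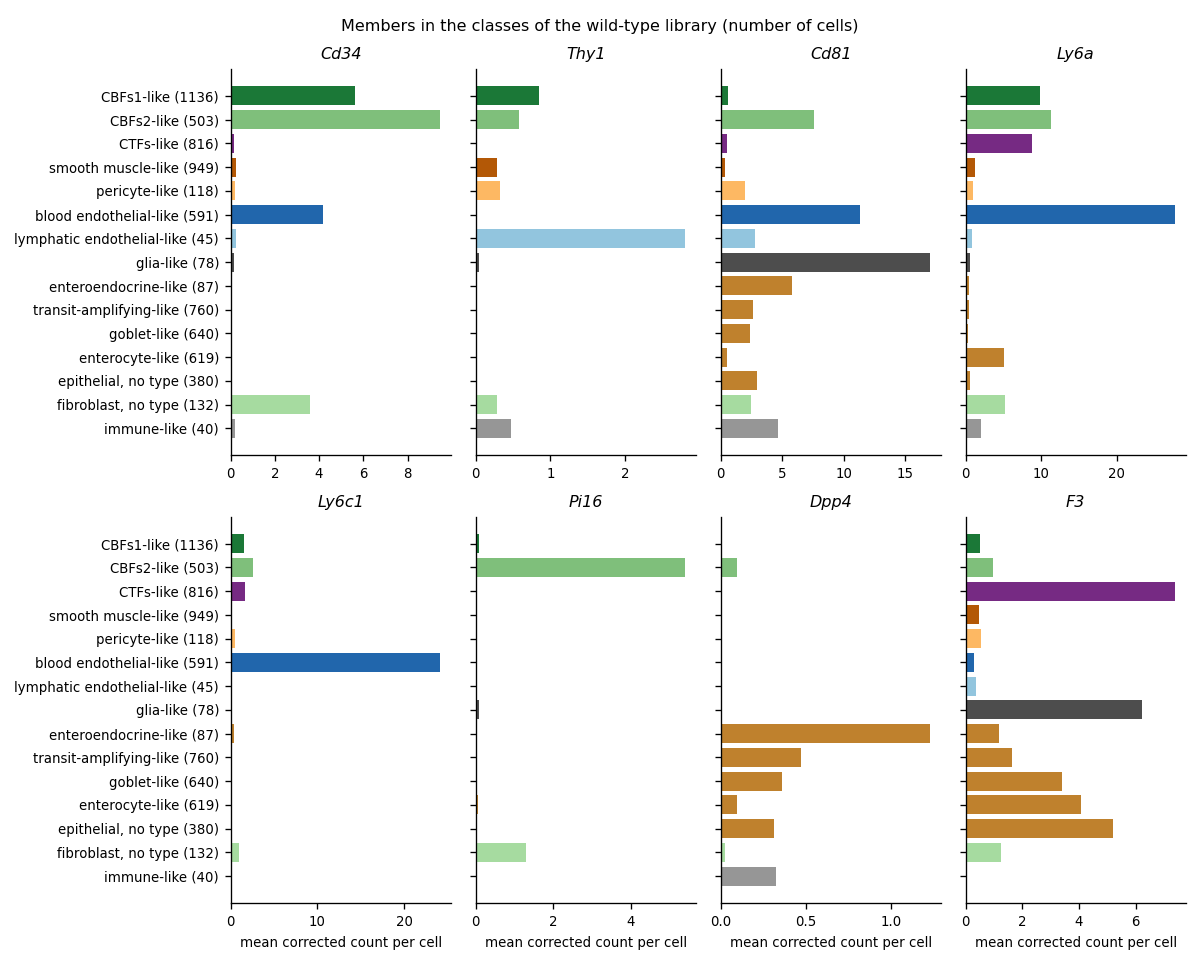
Mean corrected count per cell (x axis, linear, a scale of its own for each gene) of the 8 genes in 15 classes of the wild-type library (y axis, number of cells in brackets). Pi16 stands out in CBFs2-like, F3 in CTFs-like, Ly6a and Ly6c1 in blood endothelial-like, Thy1 in lymphatic endothelial-like and Dpp4 in enteroendocrine-like cells.

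**Figure D2:**
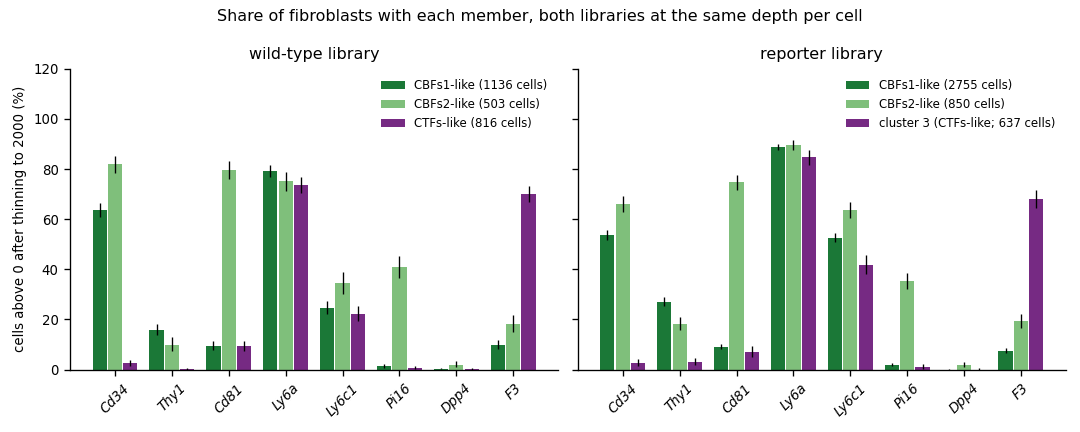
Share of cells above 0 (%) after each cell was thinned to a total of 2000, for the 8 genes in the 3 fibroblast classes of the wild-type (left) and reporter (right) library. Bars are shares and lines exact binomial 95% intervals over cells, and Cd81 and Pi16 are tall in CBFs2-like cells of both libraries and F3 in wild-type CTFs-like cells and in reporter cluster 3.

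Ratios of class means were set beside those of all genes with at least 20 counts over both classes, with a pseudocount of 0.01 added to each mean. Comparing CTFs-like with all CBFs-like cells asks which genes divide crypt-top from crypt-bottom fibroblasts. In the wild-type library 1 of the 8 genes was more than 2-fold higher (F3, log2 ratio 3.51) and 5 were more than 2-fold lower, where 5.01% of all genes were higher and 8.41% lower. The lower genes were Pi16 (−6.54), Cd34 (−5.42), Thy1 (−5.04), Cd81 (−2.42) and Dpp4, the last on 1 count against 58. Ly6a (−0.23) and Ly6c1 (−0.19) stayed close to the median of all genes, −0.08. With reporter cluster 3 in the place of the CTFs-like cells, 1 was higher and 4 were lower, against 4.82% and 4.98% of all genes, with F3 at 3.67, Cd34 at −4.40, Pi16 at −4.25, Thy1 at −3.59 and Cd81 at −2.67. The crypt-bottom mean of Cd81 came from the CBFs2-like cells, and counted as a share of cells above 0 its wild-type log2 ratio was −0.59.

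Between the crypt-bottom classes, CBFs2-like over CBFs1-like, 3 genes of the wild-type library were more than 2-fold higher and 0 lower, where 6.6% of all genes were higher and 4.27% lower. These were Pi16 (5.73), Cd81 (3.62) and Dpp4 (2.58, on 49 against 9 counts). With reporter cells 4 were higher and 0 lower, against 3.28% and 5.89% of all genes, with Pi16 at 4.76, Cd81 at 3.68, F3 at 1.29 and Dpp4 on 28 counts against 1. F3 stood at 0.93 in the wild-type library, just inside the limit. The median mitochondrial share was 5.80% in wild-type CBFs2-like and 8.64% in CBFs1-like cells, and without cells above 10% the same comparison gave 5.44 for Pi16 and 3.69 for Cd81. Cd34 (0.75 and 0.54) and Ly6c1 (0.77 and 0.62) were higher by less than 2-fold in both libraries, and Thy1 was lower by less than that (−0.54 and −0.59). The sign was the same in both libraries for 16 of 16 values over these comparisons, cluster 3 standing for the CTFs-like cells. Of these values 8 were past 2-fold in both. The same counts over all genes were not made, so these have no background. The Dpp4 sign in cluster 3 rested on 0 counts against 29.

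Smooth muscle-like cells were the stromal cells with the fewest of these genes. Against all fibroblasts 7 of 8 genes were more than 2-fold lower and 0 higher, where 10.2% of all genes were lower and 5.31% higher. Pi16 (−4.77), Cd34 (−4.21), Ly6c1 (−3.69), Ly6a (−2.96), Cd81 (−2.59) and F3 (−2.55) were lower, as was Dpp4 on 3 counts against 59. Thy1 was the exception at −0.80, and 198 of 949 smooth muscle-like cells carried it.

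Blood endothelial-like cells shared a part of the set. Against all fibroblasts 3 genes were more than 2-fold higher and 4 lower, where 10.5% of all genes were higher and 19.3% lower. Ly6c1 (3.75), Cd81 (2.49) and Ly6a (1.5) were higher, Cd34 was level (−0.13), and Pi16 (−4.52), Thy1 (−4.19) and F3 (−3.21) were lower, with Dpp4 on 3 counts against 59. As shares of cells above 0 the log2 ratios were 0.06 for Ly6a and 0.86 for Ly6c1, where the fibroblast shares of 95.9% and 53.4% leave no room for a 2-fold higher one. With cells thinned to 2000, Ly6c1 was found in 93.4% of blood endothelial-like cells and 25.9% of fibroblasts, and Ly6a in 97.5% and 76.5%. Thinning each cell to 2000 moved the median log2 ratio of all genes in this comparison from −0.23 to −0.11.

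**Figure D3:**
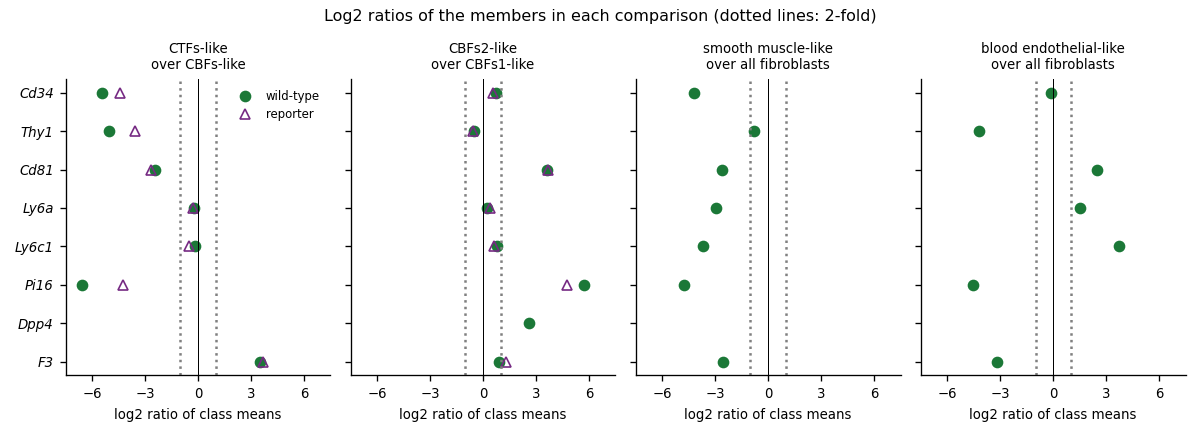
Log2 ratio of class means (x axis, pseudocount 0.01) of each gene (y axis) in the comparisons named above each panel, for the wild-type (filled circles) and reporter (open triangles) library, with dotted lines at 2-fold. Values resting on 3 or fewer counts in a class, all of Dpp4, are not drawn, and the reporter triangles of the first panel use cluster 3.

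Co-detection was counted cell by cell. CBFs2-like cells carried the most of the 8 genes at once, on average 4.93 in the wild-type library, then 4.23 in fibroblasts with no type, 4.07 in blood endothelial-like, 3.47 in CBFs1-like, 2.77 in CTFs-like cells, and was lowest, at 1.30, for smooth muscle. In the fibroblasts with no type, whose median was 1726.5 genes per cell, the mean fell to 2.24 with cells thinned to 2000, and 68.2% and 82.6% of them had a value of exactly 1 for Cd81 and F3. At least 5 of the genes were above 0 in 67.0% of CBFs2-like, 34.1% of these no-type, 16.8% of CBFs1-like, 15.7% of blood endothelial-like and 1.72% of CTFs-like cells, and 29.1% of smooth muscle-like cells carried 0 of them. All 8 genes were above 0 in 7 wild-type and 2 reporter cells of the CBFs2-like class. The reporter means were 4.17, 2.94 and 2.43 for CBFs2-like, CBFs1-like and cluster 3 cells. With every cell thinned to 2000, CBFs2-like cells stood at 3.42 and 3.69 in the wild-type and reporter library and CBFs1-like cells at 2.04 and 2.41. The wild-type blood endothelial-like mean was then 3.41, level with the CBFs2-like one.

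**Figure D4:**
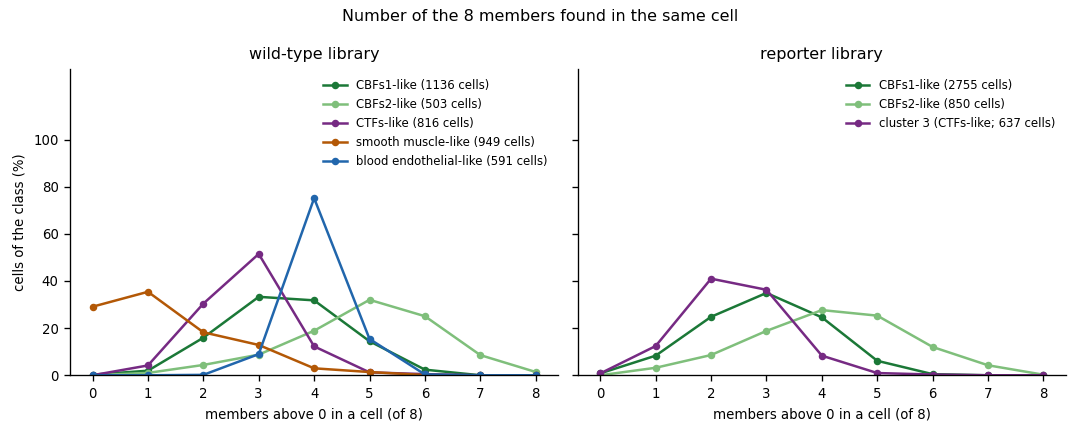
Share of cells (y axis, %) with 0 to 8 of the genes above 0 (x axis) in classes of the wild-type (left) and reporter (right) library. The CBFs2-like curve peaks at 5 genes in the wild-type and at 4 in the reporter library, and the blood endothelial-like curve has a narrow peak at 4.

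The sets of genes used to sort stromal progenitors, counted here as RNA and not as surface protein, were found in different classes. Cd34 with Cd81 and Pi16 is not such a set. Cd81 with Pi16 was chosen beforehand for the CBFs2-like class, so its counts there are a description only. Cd34 with Thy1 was found in 756 wild-type cells, of which 502 were CBFs1-like (44.2% of that class), 160 CBFs2-like, 25 smooth muscle-like, 8 blood endothelial-like and 4 CTFs-like. Of the 1023 such reporter cells 833 were CBFs1-like, 174 CBFs2-like and 5 in cluster 3. Cd34 with Ly6a and Ly6c1 held 83.8% of blood endothelial-like, 62.4% of CBFs2-like, 50.0% of CBFs1-like and 2.57% of CTFs-like cells. This set thus drew on vessels as well as on crypt-bottom fibroblasts, and it was also found in 98 unnamed cells. Cd34 with Cd81 and Pi16 was found in 343 cells, of which 282 were CBFs2-like (56.1% of the class), 24 were fibroblasts with no type, 10 were CBFs1-like, 9 blood endothelial-like and 1 CTFs-like. In the reporter library this set held 247 CBFs2-like (29.1%) and 13 CBFs1-like cells and 0 of 637 cells of cluster 3, which allows a share of up to 0.471%.

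Pi16 with Dpp4, the pair known from adventitial fibroblasts, was found in 33 wild-type cells, of which 25 were CBFs2-like and 7 epithelial. The pair thus covered 4.97% of the CBFs2-like class (3.24 to 7.25), and it was found in 0 of 1136 CBFs1-like cells, which allows up to 0.264%, and 0 of 816 CTFs-like cells, which allows up to 0.368%. All 14 such cells of the reporter library were CBFs2-like. F3 without Cd34, the reverse profile, was found in 88.1% of wild-type CTFs-like cells and 74.7% of cluster 3, against 3.43% of CBFs1-like and 0.795% of CBFs2-like cells, and also in 53.2% of epithelial and 29.1% of smooth muscle-like cells.

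In fibroblasts and blood endothelium, most pairs were found together about as often as the product of their single shares, and in smooth muscle most were not. Over the pairs with at least 20 such cells, the median of the observed share over the product lay between 1.00 and 1.02 in the CBFs1-like, CBFs2-like, CTFs-like and blood endothelial-like classes of the wild-type library. It was 1.44 in smooth muscle-like cells, where 11 of 14 pairs were above 1.2. That class joined a cluster of 887 cells and one of 62 cells with unlike shares. Cd81 was found in 13.5% and 100% of their cells, Ly6a in 38.0% and 100% and F3 in 28.1% and 95.2%. The 62 cells had a median of 1698 genes per cell, against 2656 in the 887. Their means were low, at 1.45 for Cd81, 2.50 for Ly6a and 1.31 for F3, and a value of 1 can be set by the depth correction. The part of this pooling and of the depth correction in the smooth muscle-like ratios was not tested. Cd81 and Pi16 in CBFs2-like cells were a plain case, at 56.5% observed against 56.7%, since nearly all cells carried Cd81. In CBFs1-like cells Cd34 with Thy1 reached 44.2% against 41.8%.

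The highest ratios in fibroblasts rested on 28 cells each. Dpp4 with F3 in wild-type CBFs2-like cells stood at 1.65 (1.23 thinned to 2000), and Cd34 with Cd81 in CTFs-like cells at 1.65 (0.51 thinned). In CBFs1-like cells Ly6c1 with Pi16 (34 cells) and Thy1 with Pi16 (28 cells) stood at 1.37 and 1.35. Among pairs found in over 200 wild-type CBFs2-like cells, Ly6c1 with Pi16 had the highest ratio. Both were above 0 in 42.7% of wild-type cells against a product of 36.2% (ratio 1.18), and the ratio was 1.42 with cells thinned to 2000, and 1.25 and 1.11 in the cells of the class below and above its median of genes per cell. Reporter cells gave 32.9% against 29.0%, a ratio of 1.14, and 1.14 thinned. CBFs2-like cells with Ly6c1 (318 cells) had a mean of 7.53 for Pi16 and 14.7 for Ly6a, against 1.77 and 5.37 in the 185 cells without it. In the same cells Cd34 was 10.7 against 7.35, Thy1 0.657 against 0.443 and Dpp4 0.129 against 0.043. Cd81 (7.76 against 7.31) and F3 (0.981 against 0.914) differed less. Median genes per cell were 2895 and 2626, and the part of depth in these differences was not tested beyond the thinned values. In the reporter library Pi16 was 1.73 with and 0.933 without Ly6c1 (610 and 240 cells), Ly6a 8.32 and 3.43, Thy1 0.475 and 0.221, and Cd81 3.03 and 3.14.

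CBFs2-like cells with Dpp4 had higher means of Pi16 and Ly6c1 and also more genes per cell. In the 37 wild-type CBFs2-like cells with Dpp4 the mean of Pi16 was 12.5 and that of Ly6c1 5.57, against 4.85 and 2.39 in the 466 cells without it, at a median of 3120 and 2773 genes per cell. The means of all the other genes were higher there too, with F3 at 1.86 against 0.884. Split by Pi16 instead, the Dpp4 mean was 0.101 with it and 0.093 without it. Ly6c1 with Dpp4 was found in 6.36% of cells against a product of 4.65%, and Pi16 with Dpp4 in 4.97% against 4.21%. The part of depth in these differences was not tested. In the reporter library, Ly6c1 was 4.64 in the 25 cells with Dpp4 and 2.51 in the 825 cells without it, and Pi16 1.96 and 1.49, at a median of 1563 and 1160 genes.

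**Figure D5:**
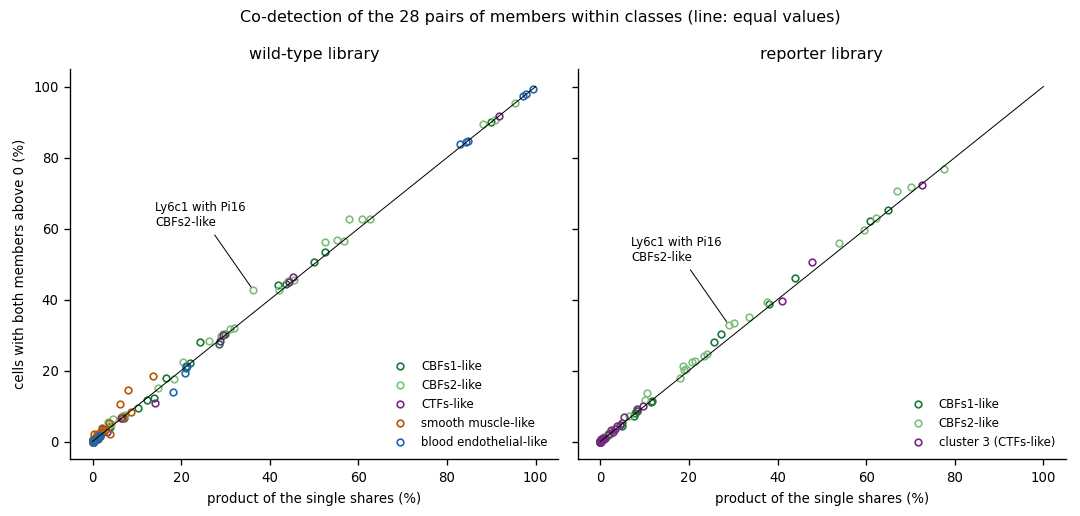
Share of cells with both genes of a pair above 0 (y axis, %) against the product of the single shares (x axis, %) for the 28 pairs, by class, in the wild-type (left) and reporter (right) library. Most points lie on the line of equal values, and Ly6c1 with Pi16 in CBFs2-like cells lies above it at 42.7% against 36.2% and 32.9% against 29.0%.

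In smooth muscle-like cells the highest ratio, 5.03, rested on few cells. Cd34 with Ly6c1 was found in 20 of 949 cells, 2.11% against a product of 0.419%. These 20 cells had a summed mean of 184 over the 10 fibroblast markers, against 70.4 in the other cells of the class, 237 against 278 over the smooth muscle markers and 3.20 against 1.48 over the blood endothelial markers. They also had 3918 against 2606 genes per cell at the median and a median Scrublet doublet score of 0.155 against 0.014. The 198 smooth muscle-like cells with Thy1 had a fibroblast sum of 85.2 against 69.6 and a score of 0.013 against 0.014. In the 11 epithelial cells with Cd34 and Thy1 the fibroblast sum was 78.4 against 1.93 in the others, and in the 7 with Pi16 and Dpp4 33.4 against 2.18. The part of mixed cells in these counts was not tested, since Scrublet called only 5 wild-type and 4 reporter cells, so its calls have not worked on these values. Its scores are given as a description only and were not checked against known mixed cells.

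Genes related to the 8 by pathway or family were followed in CTFs-like over CBFs-like cells of the wild-type library, in lists that hold none of them. In that comparison 5.01% of all genes were higher and 8.41% lower. Of 9 partners of Pi16 and Dpp4 in adventitial progenitors, 8 were more than 2-fold lower and 0 higher, with a median log2 ratio of −3.31 and with the elastic fibre gene Mfap5 at −6.27, Cd248 (endosialin) at −6.22, Cd55 (decay-accelerating factor) at −5.07 and Emilin2 at −4.20. The count was 8 of 9 in the reporter library as well, where the median was −3.0 and 4.98% of all genes were lower. Between the crypt-bottom classes 4 of the 9 were higher in CBFs2-like cells and 0 lower, against 6.6% and 4.27% of all genes. In the reporter library 7 were higher and 0 lower, against 3.28% and 5.89%. Mfap5 was not confined to fibroblasts, with a mean of 9.13 in smooth muscle-like against 9.63 in CBFs2-like cells.

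The tissue factor pathway and thrombin control list went with F3 in part. Of 10 genes 4 were higher and 1 lower, against 5.01% and 8.41% of all genes, the shares for each list in this paragraph. Procr, the endothelial protein C receptor, stood at 4.97, Plau (urokinase) at 4.60 and Thbd (thrombomodulin) at 1.31, while the inhibitor Tfpi2 stood at −2.38. In the reporter library 5 of 10 were higher and 2 lower (4.82% and 4.98% of all genes), with Procr at 4.74 and Thbd at 1.19. Of 22 tetraspanins 5 were higher and 3 lower, with Tspan13 at 4.57 and Tspan18 at −2.25, so that several relatives of Cd81 were higher where Cd81 was lower. Of 12 other surface genes used for stromal stem cells 5 were higher and 3 lower, with the leptin receptor gene Lepr at −4.67, Vcam1 at −3.13 and Alcam at 3.26.

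The families of the remaining genes gave few calls on few genes, to be read against the 5.01% of all genes that were higher and the 8.41% that were lower. Of 8 other Ly6 family genes 1 was higher and 0 lower (Lypd1, 1.10), of 6 DPP peptidases 1 was higher and 1 lower (Fap, the fibroblast activation protein gene, −4.22), of 4 CAP domain genes 1 each (Pi15, −5.18), and of 3 genes for sialomucins of the CD34 family and endomucin 0 were past 2-fold. In blood endothelial-like cells over all fibroblasts, 6 of 10 Ly6 family genes were higher and 3 lower, against 10.5% and 19.3% of all genes. The vessel sialomucin genes Emcn (8.42) and Podxl (7.71) were higher in that comparison. Fap and Pi15 were lower in CTFs-like cells and higher in CBFs2-like than in CBFs1-like cells (1.77 and 1.71), as Pi16 was.

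Across the 13 named classes of the wild-type library, the genes most like each of the 8 were found by Pearson's r of log2 class means over 13606 genes, given as a description because the classes share 1 library. Cd34 was closest to Fbln2 (0.921), Mgp (0.914) and Eln (0.911), genes of the extracellular matrix, and Thy1 to Maf (0.919), Wbp1l (0.897) and Cp (0.885). Pi16 was closest to Myoc (0.881), Best1 (0.873) and Adamtsl3 (0.865), and F3 to Btc (0.870), Sox6 (0.867) and Lclat1 (0.837). Ly6c1 was closest to Alpl (0.925), Fam13c (0.912) and Hlx (0.887), and Ly6a to Hlx (0.842), Xdh (0.841) and Alpl (0.818), so both Ly6 genes shared 2 of their 3 genes. Cd81 had the loosest neighbours, Elovl5 (0.829), Nup210l (0.798) and Nfatc1 (0.794), and Dpp4 the tightest, Sfxn2 (0.959), Gm45220 (0.955) and Nup210 (0.95). Among the 8 genes themselves Ly6a with Ly6c1 was highest at 0.795 and Thy1 with F3 lowest at −0.612.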

How the data were processed

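The score values deposited by the authors are whole-number UMI counts after SCTransform had corrected them for depth, as the values show, and each deposited natural log value is ln(1 + x) of such a count x. Per the labels and methods, reads were processed with Cell Ranger (mm10), Seurat 3.1 and R 3.6.2. Corrected totals per cell spanned 6120 to 16389 in 7495 wild-type and 2314 to 4432 in 4409 reporter cells, so the original depth is unknown and a value of 1 can be set by the correction. Of these cells 7394 and 4407 met the limits on genes and mitochondrial share that the study states, and all were kept. The libraries shared 1 barcode.

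The log values were clustered in Seurat 5.3.0 (R 4.3.3) with 30 principal components and resolutions of 0.45 and 0.3, on 2942 and 2951 of 3000 variable features, without the 8 genes and their related lists. A class name needed 3 markers from 1 of 18 lists. Shares carry exact Clopper-Pearson intervals at 95%, and a share of 0 allows 3 counts of the total. Ratios of means, with a pseudocount of 0.01, were called past 2-fold among genes with at least 20 counts. With 1 library per group there was no test. The text names the 8 genes, up to 4 genes per related list with the largest ratio in CTFs-like over CBFs-like cells, and the 3 genes most like each. The alternatives are in the closing section, and the one without the 5% of cells with the highest Scrublet score was chosen after seeing the data. It rests on a score that was not checked here. The alternative without called doublets left out only 5 wild-type and 4 reporter cells, so it says little about mixed cells. Python 3.11.15, scanpy 1.11.5 and scipy 1.17.1 were used, and the ratio step was tested on simulated data. The 8 genes and all lists were chosen with earlier results of these data known. Positions are from GENCODE release M21 (GRCm38, the assembly of mm10).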

Additional observations from a re-analysis of the deposited data

Results flagged for a closer look

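For 3 of the 8 genes the highest mean of the wild-type library lay in a class that the comparisons did not use, and each is given as a value with its cause not tested. Thy1 reached a mean of 2.80 corrected counts per cell in the 45 lymphatic endothelial-like cells, above the 0.843 of CBFs1-like cells, the highest class compared. Cd81 reached 17.0 in the 78 glia-like cells, above the 11.3 of blood endothelial-like cells. Dpp4 reached 1.23 in the 87 enteroendocrine-like cells, above the 0.097 of CBFs2-like cells.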

How the results depend on the processing

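The counts of the 8 genes past 2-fold stayed within 1.5 times the main count under each of 13 alternatives (5 to 6 genes in CTFs-like over CBFs-like cells of the wild-type library and in cluster 3 over CBFs-like reporter cells, 2 to 4 and 3 to 4 in CBFs2-like over CBFs1-like, 6 to 7 in smooth muscle and 5 to 7 in blood endothelium), and of the recomputed ratios 595 kept their side of 2-fold, 6 fell inside it, 5 moved past it and 0 of those past it changed sign. As shares of cells above 0, ratios inside 2-fold turned for Ly6a in CTFs-like over CBFs-like wild-type cells (0.02) and in CBFs2-like over CBFs1-like cells (−0.08, reporter −0.02), and for Cd34 in blood endothelium (0.38). The number of genes above 0 per cell moved with detection, while CBFs2-like stayed first of the 3 named fibroblast classes in each run. Wild-type means, for the 3 fibroblast classes from CBFs1-like to CTFs-like, then smooth muscle and then blood endothelium, were 2.04, 3.42, 1.79, 0.464 and 3.41 thinned to 2000, 1.41, 2.45, 1.27, 0.277 and 2.86 thinned to 1000, and 2.64, 4.14, 2.23, 0.491 and 3.78 at values of at least 2. Reporter fibroblast means were 2.41, 3.69 and 2.08, then 1.65, 2.82 and 1.52, then 1.92, 3.14 and 1.72 under the same settings. Without cells above 10% mitochondrial counts the wild-type CBFs1-like and CBFs2-like means were 3.57 and 5.14, with the resolutions exchanged the reporter ones were 3.06 and 4.34, and without the 5% of cells with the highest Scrublet score the smooth muscle-like mean was 1.18. The cause was not tested. No paired analysis was possible because each group is 1 library with no map from cells to mice. Corrected totals hide the original depth, and rare genes such as Dpp4 rest on few counts.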
